A study of Mus musculus with 20 samples.

Results

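The 30 genes described here encode proteins of the basement membrane or bound to it, in cultured mouse cardiac fibroblasts, the cells that make most of the extracellular matrix of the heart. They were taken by symbol from the deposited table of read counts per Ensembl gene, which holds 55414 genes, by a list of named genes. The list applies no measured value but was made with earlier results of these data known. It covers 6 collagen IV chains, 2 endostatin-bearing collagens, 5 laminin alpha, 3 beta and 2 gamma chains, 2 nidogens, 2 heparan sulfate proteoglycans and 8 associated proteins. Of these 30, 28 passed the filter on low counts that left 15624 genes for testing. Lamc3, a laminin gamma chain, and Fras1, an anchoring protein of the Fraser complex, did not pass and lay at or below 0.542 and 0.178 CPM (read counts scaled to library size, with TMM factors).

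The cells came from hearts of mice with both Hyal2 alleles floxed and were used at passage 2, although the genotype label reads wild type C57BL/6J. All 20 cultures were serum starved for 24 h and exposed to an adenovirus for 5 h, so the control cultures carry the floxed alleles and a virus too. There were 5 groups of 4 libraries. GFP_TGFB received the GFP control virus and TGFB at 20 ng/mL for 48 h, and Cre_TGFB received the Cre virus, which deletes exon 2 of Hyal2, and TGFB. Cre received the Cre virus, Hyal2 a virus that overexpresses Hyal2, and GFP the control virus, all without TGFB. The wording of the protocol leaves it unclear whether the cultures without TGFB received bFGF (basic fibroblast growth factor) at the same dose, so the effect of TGFB and that of TGFB in place of bFGF cannot be told apart. By the labels, replicates 1 and 2 were female in every group and replicates 3 and 4 were male. Libraries with the same replicate number carry the same code in their library names across the groups, and such a number is called an isolate here. The labels state neither the age of the mice nor how many mice stand behind an isolate.

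Library totals ranged from 38621523 to 104779845 counts. Hyal2, the targeted gene, lay at 5.37 to 9.14 CPM in Cre_TGFB, 7.62 to 13.5 CPM in Cre and 399 to 1420 CPM in Hyal2, against 33.4 to 41.1 CPM in GFP_TGFB and 36.6 to 44.5 CPM in GFP. Fibroblast markers were abundant in every group, led by Col1a1 at a mean of 19100 CPM in GFP_TGFB and by Col3a1 at 26600 CPM in GFP. Cre replicate 2 lay below the other 3 libraries of its group in several members (Col4a1, Col4a2, Col4a5, Lama2 and Smoc1), and the calls and ranges over isolates that change without it are given below. This was not particular to Cre. In each of these genes isolate 2 was the lowest isolate on average over the groups without TGFB and over those with it. Hyal2 replicate 2, for example, had 3340 CPM of Col4a1, against 4310 to 4610 CPM in the rest of its group.

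Basement membranes are thin sheets of matrix in which a laminin network, bound to cell surface receptors, is joined by nidogens and the heparan sulfate proteoglycan perlecan to a covalently linked network of collagen IV. Each laminin is a trimer of an alpha, a beta and a gamma chain, and each collagen IV molecule a trimer of alpha chains, so the chains a cell makes decide which trimers are possible. In the heart such sheets surround cardiomyocytes, capillaries and nerves, and fibroblasts lay down part of their components.

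All members together took 1.89 ± 0.0954% of the counts in GFP_TGFB, 1.95 ± 0.0981% in Cre_TGFB, 1.88 ± 0.296% in Cre, 1.91 ± 0.273% in Hyal2 and 1.81 ± 0.202% in GFP (SD, n = 4 each), ranges that overlap. Per kb of exon length, collagen IV was the most abundant class. Col4a1 had 816 ± 74.5 CPM per kb in GFP_TGFB and 514 ± 40.1 in GFP, and its partner Col4a2 had 572 ± 52.3 in GFP_TGFB and 450 ± 44.6 in GFP (SD, n = 4). Next in level per kb were Col15a1 at 289 ± 55.4 CPM per kb in GFP_TGFB and 239 ± 42.8 in GFP, and Nid1 at 198 ± 7.31 in GFP_TGFB and 240 ± 28 in GFP, each within the spread of the other in GFP. Hspg2 (perlecan), Lamc1 and Lamb1 followed, at 159 ± 10.7, 107 ± 15.2 and 106 ± 7.3 CPM per kb in GFP_TGFB. At the low end, Col4a3, Col4a4, Lama1, Lama3, Lamb3, Lamc3 and Fras1 had a mean of at most 0.282 CPM per kb in GFP_TGFB and at most 0.144 in GFP.

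Single basement membrane genes differed widely between cultures with and without TGFB, although their summed share overlapped. In GFP_TGFB against GFP, 19 of the 28 tested members passed edgeR's quasi-likelihood test at an adjusted p under 0.05 (Benjamini-Hochberg over all 15624 genes), 7 of them higher and 12 lower. Of all genes tested 55.3% passed, so the members' share of 67.9% is to be read against that background, which was 26.6% higher and 28.6% lower. The median log2 fold change was -0.26 over the members and -0.02 over all genes, and the median size of the change, whatever its sign, was 0.75 over the members and 0.38 over all genes. The 4 libraries of each group did not overlap in 16 members, 6 higher and 10 lower, beside 50.2% of all genes (24.6% higher and 25.5% lower). With the isolate as a block 24 members were called, 9 higher and 15 lower, beside 61.9% of all genes (29.8% higher and 32.1% lower). The members that rose included both major collagen IV chains, the collagen IV cross-linking enzyme Pxdn, the netrin Ntn4 and perlecan. Those that fell included Frem1, Nid2, Smoc1, Col18a1, Lama4 and Col4a6. These are bulk cultures, in which fewer cells of one kind and less RNA per cell cannot be told apart.

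**Figure D1:**
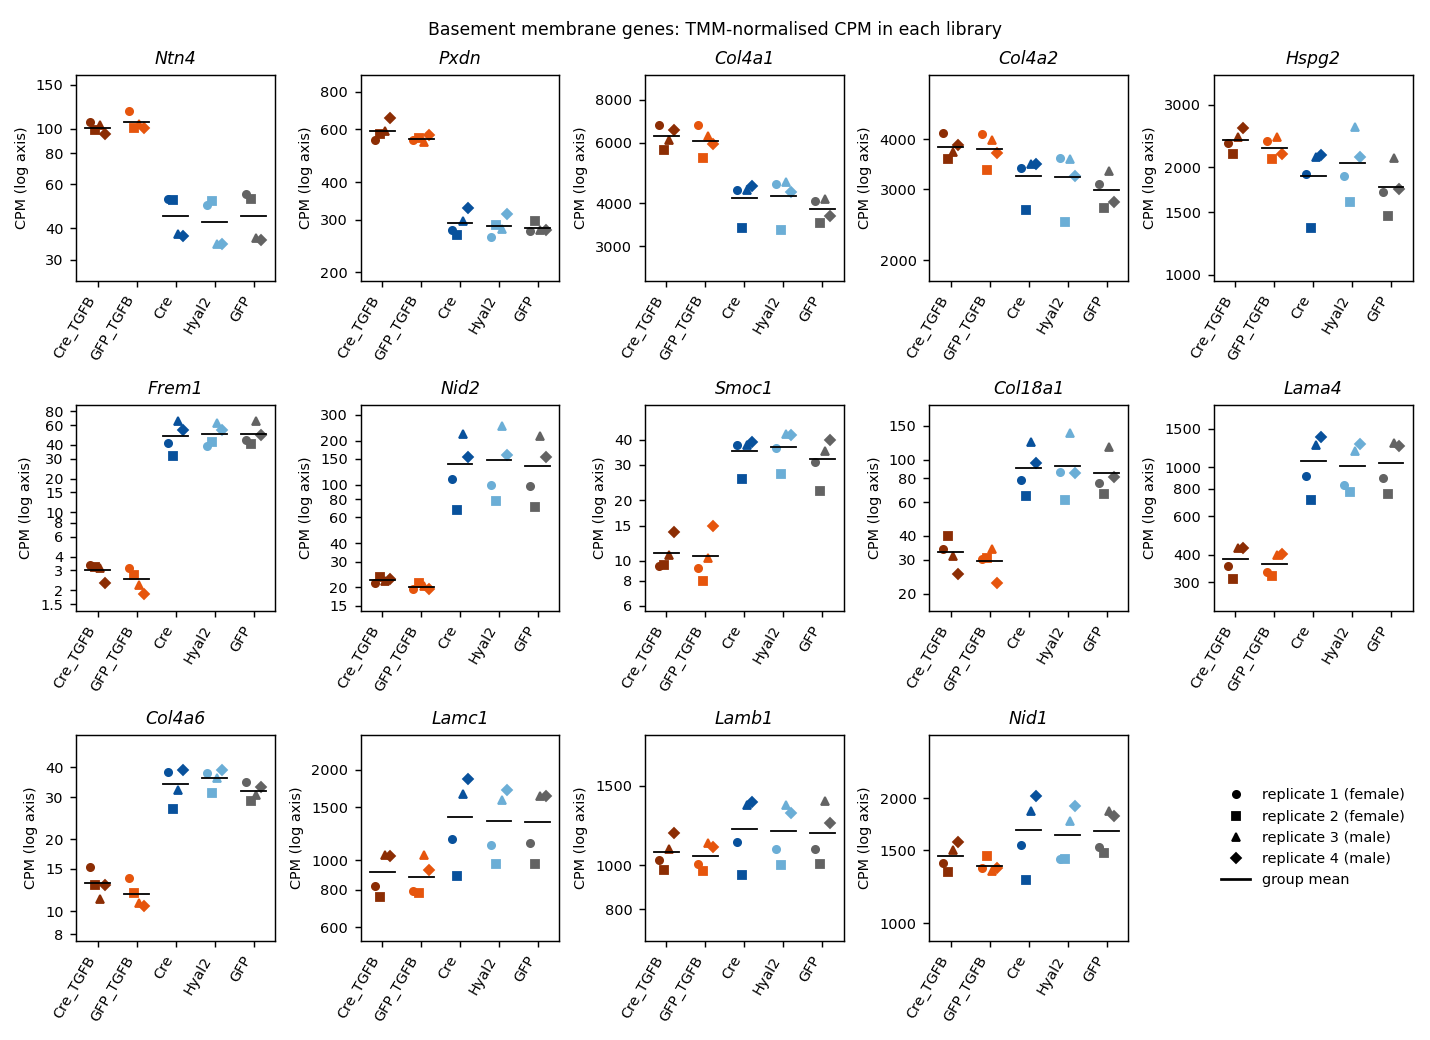
TMM-normalised CPM (log axis) of 14 members in each of the 20 libraries, by group. Each symbol is 1 library, its shape gives the isolate and the line the group mean. Ntn4, Pxdn, Col4a1 and Col4a2 sit higher and Frem1, Nid2, Smoc1, Col18a1, Lama4 and Col4a6 lower in the GFP_TGFB libraries than in all 4 GFP libraries, while Cre, Hyal2 and GFP overlap.

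The collagen IV genes lie head to head in pairs on the chromosomes, with the partners on opposite strands. Windows of Col4a3 and Col4a4 are left out. The 250 bases before the starts are printed here for Col4a1 with Col4a2 and for Col4a6 with Col4a5, because these partners differed in their change with TGFB. Beside them stand the same windows of Pxdn and Ntn4, which rose in every isolate, and of Frem1, the member that fell most. They are from RefSeq on build GRCm38.p6, while the deposited counts were made on GRCm39. Col4a1 is at chr8:11312827-11313076 (minus strand), Col4a2 at chr8:11312555-11312804 (plus), Col4a6 at chrX:141474077-141474326 (minus), Col4a5 at chrX:141475169-141475418 (plus), Pxdn at chr12:29937786-29938035 (plus), Ntn4 at chr10:93640799-93641048 (plus) and Frem1, the outer of its 2 starts, at chr4:83052167-83052416 (minus). Each runs 5′ to 3′ on the strand of its gene, and capitals mark matches on either strand to the SMAD element CAGAC, the GC box GGGCGG, the CCAAT box, the TATA box TATAAA or the AP-1 site TGANTCA, of which adjoining matches may overlap.
Col4a1: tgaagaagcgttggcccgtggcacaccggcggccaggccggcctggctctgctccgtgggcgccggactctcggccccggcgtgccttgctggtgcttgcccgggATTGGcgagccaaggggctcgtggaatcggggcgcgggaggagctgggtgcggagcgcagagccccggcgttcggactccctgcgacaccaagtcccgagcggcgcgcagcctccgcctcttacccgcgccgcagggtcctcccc
Col4a2: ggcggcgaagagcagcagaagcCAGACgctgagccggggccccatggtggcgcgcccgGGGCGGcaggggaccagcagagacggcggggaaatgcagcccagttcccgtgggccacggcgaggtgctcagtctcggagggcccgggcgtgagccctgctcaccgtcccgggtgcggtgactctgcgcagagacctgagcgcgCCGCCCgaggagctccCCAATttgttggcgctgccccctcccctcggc
Col4a6: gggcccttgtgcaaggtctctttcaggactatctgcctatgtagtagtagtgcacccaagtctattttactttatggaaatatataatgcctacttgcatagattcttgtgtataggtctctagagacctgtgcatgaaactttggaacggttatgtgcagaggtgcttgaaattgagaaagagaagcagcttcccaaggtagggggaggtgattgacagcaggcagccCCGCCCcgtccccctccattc
Col4a5: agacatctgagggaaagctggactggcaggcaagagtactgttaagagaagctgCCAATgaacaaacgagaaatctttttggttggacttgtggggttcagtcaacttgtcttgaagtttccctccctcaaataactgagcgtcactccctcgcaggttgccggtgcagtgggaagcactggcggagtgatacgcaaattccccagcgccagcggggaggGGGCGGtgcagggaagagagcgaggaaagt
Pxdn: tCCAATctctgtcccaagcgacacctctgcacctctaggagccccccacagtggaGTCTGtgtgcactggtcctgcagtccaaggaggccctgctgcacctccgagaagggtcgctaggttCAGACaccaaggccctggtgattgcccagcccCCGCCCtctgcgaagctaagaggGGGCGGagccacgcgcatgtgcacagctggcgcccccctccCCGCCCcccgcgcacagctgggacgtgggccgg
Ntn4: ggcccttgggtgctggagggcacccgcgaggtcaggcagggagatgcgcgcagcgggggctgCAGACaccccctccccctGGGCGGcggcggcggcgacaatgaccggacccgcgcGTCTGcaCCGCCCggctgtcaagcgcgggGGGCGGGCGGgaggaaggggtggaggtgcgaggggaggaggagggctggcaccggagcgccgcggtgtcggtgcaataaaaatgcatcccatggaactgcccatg
Frem1: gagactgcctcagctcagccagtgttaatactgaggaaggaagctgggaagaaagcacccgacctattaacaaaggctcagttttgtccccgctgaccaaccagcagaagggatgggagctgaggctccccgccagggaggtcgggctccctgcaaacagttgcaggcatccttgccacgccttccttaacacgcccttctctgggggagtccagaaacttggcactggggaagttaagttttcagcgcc

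The starts of Col4a1 and Col4a2 overlap by 22 bases, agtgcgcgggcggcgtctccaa on the plus strand at chr8:11312805-11312826 (outside the windows searched), whereas those of Col4a6 and Col4a5 lie 1343 bases apart. The window of Col4a2 holds CAGAC and GGGCGG matches, and that of Col4a1 holds neither but has a CCAAT box on its other strand. The 22 shared bases, which neither window covers, also contain GGGCGG. Because these starts overlap, the window of each gene lies past the start of its partner. Col4a5 and Col4a6 each hold a GC box, and Col4a5 a CCAAT box. Pxdn and Ntn4 both hold CAGAC on both strands as well as GC boxes, and the Frem1 window holds no match. Of 30 members, 20 had a start that was searched, with 26 starts in all. The chromosome of Lama3 was not searched for member starts, whereas the windows of all genes were not limited in this way. CAGAC was in 10 of these 26 windows and in 42.2% of 32851 windows of all genes, GGGCGG in 15 and 32.7%, and CCAAT in 9 and 33.8%. TATAAA and TGANTCA were in 0 of the 26, against 12.4% and 6.75% of all windows. A match describes the letters only and does not show that a factor binds there.

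Among the collagen IV chains, Col4a1, a chain of the most common trimer, had 6750, 5420, 6260 and 5940 CPM in GFP_TGFB libraries (replicates 1 to 4, the order used throughout), against 4050, 3500, 4130 and 3680 CPM in GFP libraries. All GFP_TGFB libraries lay above all GFP libraries. Its log2 fold change was 0.67 (SE 0.11, adjusted p = 3e-05 by edgeR). Col4a2 had 4130, 3350, 3990 and 3690 CPM in GFP_TGFB, against 3100, 2700, 3340 and 2790 CPM in GFP. The lowest GFP_TGFB library stood just above the highest GFP library, and the log2 fold change was 0.35 (SE 0.11, adjusted p = 0.0129 by edgeR). Pxdn, the peroxidase that cross-links collagen IV trimers, had the smallest SE of all tested members. It had 553, 561, 545 and 575 CPM in GFP_TGFB, against 274, 297, 276 and 276 CPM in GFP, without overlap. The log2 fold change was 0.99 (SE 0.07, adjusted p = 8.94e-10 by edgeR).

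The minor collagen IV chains did not follow the major pair. Col4a6, a chain of smooth muscle and epithelial basement membranes, had 13.8, 11.9, 10.8 and 10.5 CPM in GFP_TGFB, against 34.7, 28.8, 30.6 and 32.9 CPM in GFP. Every GFP_TGFB library lay below every GFP library, and the log2 fold change was -1.43 (SE 0.12, adjusted p = 1.38e-08 by edgeR). Its head-to-head partner Col4a5, at 284 to 329 CPM in GFP_TGFB and 317 to 391 CPM in GFP, did not pass (log2 fold change -0.25, SE 0.12, adjusted p = 0.0791 by edgeR), and with the isolate block it did (adjusted p = 0.00571). Col4a3 and Col4a4, chains known from the kidney glomerulus, were called lower with log2 fold changes of -0.83 and -0.50, from at most 0.721 and 1.58 CPM in any library of both groups. For both genes the groups overlapped, and in isolate 1 Col4a3 was slightly higher with TGFB (0.12, log2).

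Laminin chains moved in both directions. Lama4, the alpha chain of laminins around vessels and adipocytes, had 332, 319, 397 and 403 CPM in GFP_TGFB, against 899, 757, 1290 and 1250 CPM in GFP. The groups stood far apart, with a log2 fold change of -1.53 (SE 0.21, adjusted p = 6.17e-06 by edgeR). Lama2, the alpha chain of the muscle basement membrane, had 177 to 240 CPM in GFP_TGFB and 127 to 186 CPM in GFP, which overlap. It was not called (log2 fold change 0.28, adjusted p = 0.171 by edgeR) except with the isolate block (adjusted p = 0.0234). Lama5, an alpha chain of epithelia and mature vessels, had 5.52 to 8.22 CPM in GFP_TGFB and 5.55 to 9.19 CPM in GFP and was not called (log2 fold change -0.11, adjusted p = 0.683 by edgeR).

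The largest rises were in alpha chains of very low level. Lama3, an alpha chain of skin, had 1.22, 0.915, 0.995 and 1.64 CPM in GFP_TGFB, against 0.133, 0.147, 0.045 and 0.141 CPM in GFP. These are 39 to 67 counts per library in GFP_TGFB and 2 to 11 counts in GFP, with a log2 fold change of 3.29 (SE 0.41, adjusted p = 1.46e-06 by edgeR). Lama1, an alpha chain of the early embryo, had 1.49, 1.26, 4.21 and 3.96 CPM in GFP_TGFB, against 0.378, 0.576, 0.293 and 0.375 CPM in GFP (log2 fold change 2.70, SE 0.44, adjusted p = 3.84e-05 by edgeR). For both genes the groups did not overlap, and the male GFP_TGFB libraries held the highest Lama1 levels.

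The beta and gamma chains shared by most laminins had smaller fold changes. Lamb1 had 1010, 974, 1120 and 1100 CPM in GFP_TGFB, against 1090, 1010, 1390 and 1240 CPM in GFP. The groups overlapped, each isolate was lower with TGFB, and the gene was not called (log2 fold change -0.17, adjusted p = 0.25 by edgeR) except with the block (adjusted p = 0.0243). Lamc1, the gamma chain of nearly all these laminins, had 789, 777, 1040 and 928 CPM in GFP_TGFB, against 1140, 971, 1630 and 1630 CPM in GFP. One GFP library, replicate 2, lay below the highest GFP_TGFB library, while within each isolate the culture with TGFB was lower. The log2 fold change was -0.60 (SE 0.22, adjusted p = 0.028 by edgeR). Lamb2, the beta chain of nerve, muscle and vessel basement membranes, fell to 183 to 242 CPM in GFP_TGFB, against 264 to 500 CPM in GFP (log2 fold change -0.87, adjusted p = 0.00153 by edgeR), and Lamb3, at no more than 1.33 CPM in any of these libraries, was also called lower (-1.41).

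Ntn4, a netrin that binds laminin gamma chains and loosens laminin networks in vitro, rose. It had 118, 101, 105 and 101 CPM in GFP_TGFB, against 54.7, 52.5, 36.5 and 35.9 CPM in GFP. The groups did not overlap, and among GFP libraries the female replicates were the higher ones. The log2 fold change was 1.24 (SE 0.16, adjusted p = 2.05e-06 by edgeR).

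Of the nidogens, which bridge the laminin and collagen IV networks, one fell steeply and the other was not called. Nid2 had 19.5, 21.5, 20.5 and 19.4 CPM in GFP_TGFB, against 98.4, 71.1, 216 and 154 CPM in GFP. The GFP_TGFB libraries were nearly level, and all lay below the GFP libraries, which ranged widely. Its log2 fold change was -2.74 (SE 0.38, adjusted p = 6.17e-06 by edgeR). Exons of Nid2 overlap by 437 bases with those of Rtraf on the opposite strand, and without the strand setting of the counting such reads cannot be told apart. The same limit holds for other members. Among them are the low-count Lama3, which shares 197 bases with Gm29200, and Col4a3, which shares 563 bases with C430014B12Rik. Nid1 had 1360, 1450, 1340 and 1360 CPM in GFP_TGFB, against 1530, 1480, 1860 and 1810 CPM in GFP. The groups did not overlap by a small margin, yet the gene was not called (log2 fold change -0.28, adjusted p = 0.0682 by edgeR) except with the block (adjusted p = 0.0136).

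Among the heparan sulfate proteoglycans, Hspg2 had 2370, 2110, 2430 and 2180 CPM in GFP_TGFB, against 1710, 1460, 2120 and 1740 CPM in GFP. The highest GFP library, replicate 3, just exceeded the lowest GFP_TGFB library, and every isolate was higher with TGFB. The log2 fold change was 0.37 (SE 0.15, adjusted p = 0.0362 by edgeR). Agrn (agrin), which clusters receptors at the nerve-muscle junction, lay at 162 to 204 CPM in GFP_TGFB and 183 to 232 CPM in GFP and was not called (log2 fold change -0.11, adjusted p = 0.634 by edgeR).

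Npnt (nephronectin), a ligand of integrin alpha-8, fell to 11.3 to 23.3 CPM in GFP_TGFB, against 26.5 to 49.2 CPM in GFP, with a log2 fold change of -1.09 (SE 0.24, adjusted p = 0.00071 by edgeR) and no overlap. Dag1, which encodes the laminin receptor dystroglycan, had 342 to 401 CPM in GFP_TGFB and 325 to 412 CPM in GFP and was not called (log2 fold change -0.05, adjusted p = 0.752 by edgeR).

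Col15a1 and Col18a1, which carry endostatin-like fragments at their ends, parted. Col18a1 had 30.3, 30.5, 34.2 and 22.8 CPM in GFP_TGFB, against 75.8, 66.5, 117 and 80.8 CPM in GFP. No library of one group reached the other, and the log2 fold change was -1.53 (SE 0.24, adjusted p = 2.01e-05 by edgeR). Col15a1 had 1360 to 2160 CPM in GFP_TGFB and 1260 to 1890 CPM in GFP, was higher with TGFB in 4 of 4 isolates, and was called with the block alone (log2 fold change 0.27, adjusted p = 0.249 by edgeR, and 0.00498 with the block).

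Smoc1 and Smoc2 are secreted calcium-binding proteins of basement membranes. Smoc1 had 9.19, 7.93, 10.4 and 14.9 CPM in GFP_TGFB, against 31, 22.2, 35.2 and 39.7 CPM in GFP. The groups did not overlap, and the log2 fold change was -1.60 (SE 0.21, adjusted p = 3.42e-06 by edgeR). Smoc2 ranged from 6.61 to 13.1 CPM in GFP_TGFB and from 5.28 to 24.1 CPM in GFP and was not called (log2 fold change -0.55, adjusted p = 0.369 by edgeR).

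Frem1, which anchors epithelium to the matrix below it as part of the Fraser complex in the embryo, fell more than any other member. It had 3.17, 2.74, 2.24 and 1.83 CPM in GFP_TGFB, against 43.9, 41.1, 65.2 and 48.9 CPM in GFP. The groups were an order of magnitude apart, with a log2 fold change of -4.31 (SE 0.24, 19.9-fold lower, adjusted p = 5.13e-11 by edgeR). Its partner Fras1 was near the detection limit in both groups, with 2 to 10 counts per library in GFP_TGFB and 2 to 8 in GFP, and Lamc3 had 3 to 14 counts in GFP_TGFB and 0 to 4 in GFP. The isolates did not all differ in the same direction for Fras1, while for Lamc3 each was higher in GFP_TGFB. Neither gene was tested.

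Of the 19 calls, 5 were lost when certain single libraries were left out (edgeR, all values log2 fold changes). Hspg2 was lost without GFP_TGFB replicate 1 or 3 or GFP replicate 1, 2 or 4 (0.29 to 0.37, adjusted p = 0.0659 to 0.113). Lamc1 was lost without GFP_TGFB replicate 1 or 2 or GFP replicate 3 or 4 (-0.55 to -0.50, adjusted p = 0.0729 to 0.0925). Col4a4 was lost without GFP_TGFB replicate 1, 3 or 4 or GFP replicate 2 or 3 (-0.47 to -0.41, adjusted p = 0.087 to 0.12), Col4a3 without GFP_TGFB replicate 2 or 3 or GFP replicate 3 (-0.76 to -0.66, adjusted p = 0.0553 to 0.0775), and Lamb3 without GFP replicate 3 or 4 (-1.25 and -1.21, adjusted p = 0.0518 and 0.0552). Without GFP replicate 2, Col4a5 and Nid1 gained a call (-0.31 and -0.33, adjusted p = 0.0418 and 0.0434). The other 14 calls held in each of these fits. Col4a2 lost its call only in smaller sets of isolates, without isolate 1 or 4 (0.33 in both, adjusted p = 0.0656 and 0.0699) and in the female libraries alone (0.36, adjusted p = 0.138).

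The comparison of Cre_TGFB with Cre makes the same contrast in cells with the Cre virus, from other libraries of the same 4 isolates. It is not an independent repeat, because a single model of all 20 libraries gave the spread for both. Here 17 of 28 members were called, 5 higher and 12 lower, beside 56.5% of all genes (27.5% higher and 29% lower), and with the block 23, beside 63.6% of all genes. Groups did not overlap in 16 members, 7 higher and 9 lower, beside 51.2% of all genes (25% higher and 26.3% lower). The median log2 fold change was -0.32 over the members and 0 over all genes. Frem1 had 3.38, 3.23, 3.17 and 2.33 CPM in Cre_TGFB, against 41.7, 31.6, 65.5 and 54.2 CPM in Cre (log2 fold change -3.98, SE 0.24, adjusted p = 9.69e-11 by edgeR). Nid2 had 21.4, 23.4, 22 and 22.9 CPM in Cre_TGFB, against 110, 67.4, 222 and 154 CPM in Cre (log2 fold change -2.63, SE 0.38, adjusted p = 9.06e-06 by edgeR). In both genes every Cre_TGFB library lay far below every Cre library. The Cre_TGFB libraries were close together for Nid2, whereas for Frem1 replicate 4 lay below the other 3.

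On the rising side, Pxdn had 551, 578, 593 and 653 CPM in Cre_TGFB, against 278, 266, 296 and 327 CPM in Cre (log2 fold change 1.03, SE 0.07, adjusted p = 5.74e-10 by edgeR). Ntn4 had 107, 98.8, 104 and 95.4 CPM in Cre_TGFB, against 52.2, 52, 37.9 and 37.3 CPM in Cre (log2 fold change 1.17, SE 0.16, adjusted p = 3.91e-06 by edgeR). Both were higher in all Cre_TGFB libraries than in any Cre library. Col4a1 rose (0.60), as did Lama1 (2.97) and Lama3 (2.38), whereas Col4a2 (0.24) and Hspg2 (0.33) were not called without the block (adjusted p = 0.0767 by edgeR and 0.061). The members called lower were Col4a4, Col4a6, Col18a1, Lama4, Lamb2, Lamb3, Lamc1, Nid2, Agrn, Npnt, Smoc1 and Frem1.

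Agrn was lower in this comparison, with 165, 233, 139 and 170 CPM in Cre_TGFB, against 227, 236, 286 and 365 CPM in Cre. The groups overlapped at Cre_TGFB replicate 2, and the log2 fold change was -0.66 (SE 0.18, adjusted p = 0.00491 by edgeR). It was not called without isolate 4 (-0.47, adjusted p = 0.0581) or in the female libraries alone (-0.23, adjusted p = 0.399). Lamb3 was not called without isolate 3 or 4 (-1.21 and -1.22, adjusted p = 0.0631 and 0.075) or in the female libraries alone (-0.38, adjusted p = 0.496). Lamc1, at -0.62 (SE 0.22, adjusted p = 0.0248), lost its call without Cre_TGFB replicate 1 or 2 or Cre replicate 3 or 4 (-0.57 to -0.44, adjusted p = 0.0641 to 0.114). Without Cre replicate 2, the low library named above, 19 members were called, and Col4a5 (-0.36, adjusted p = 0.00345) and Nid1 (-0.32, adjusted p = 0.0247) were among them. Hspg2 gained a call without Cre replicate 3 or 4 (0.39 and 0.41, adjusted p = 0.046 and 0.033), and Lama2 without Cre_TGFB replicate 2 (0.44, adjusted p = 0.0404).

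**Figure D2:**
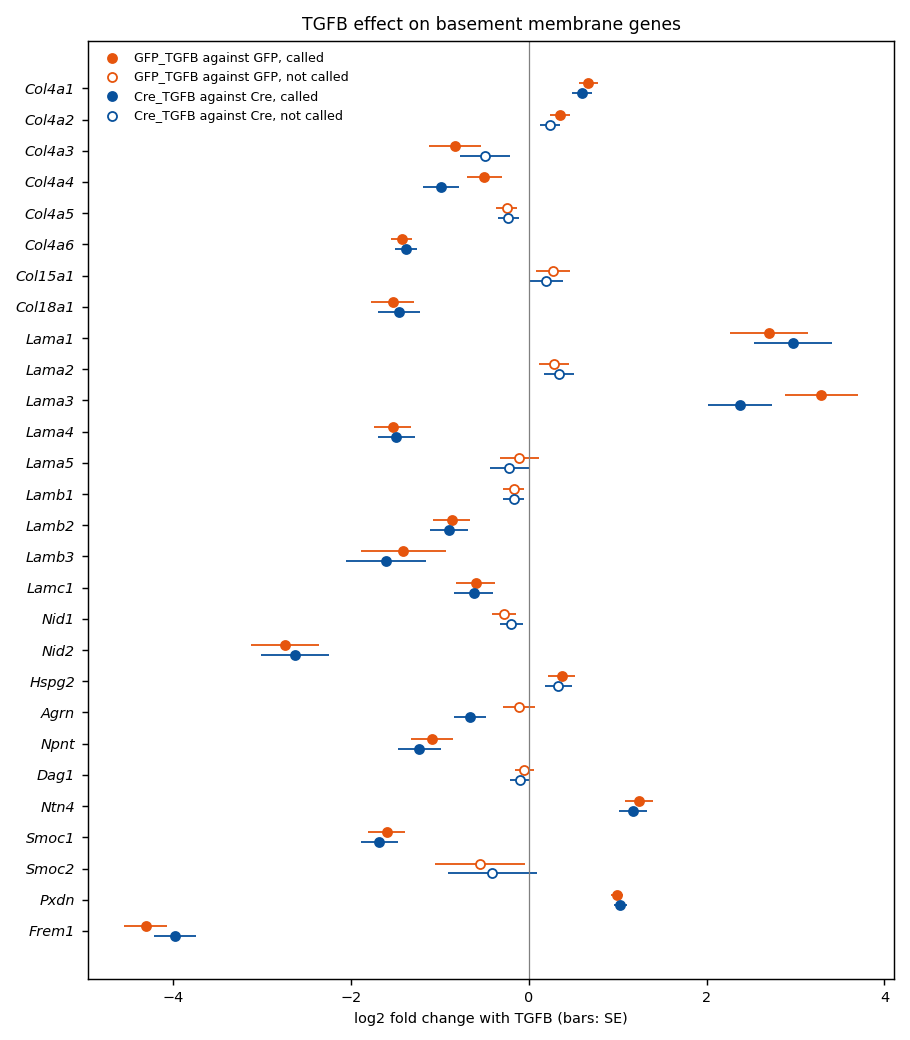
Log2 fold change with TGFB of the 28 tested members in GFP_TGFB against GFP (orange) and in Cre_TGFB against Cre (blue), with bars of 1 SE. Filled points passed edgeR's test at an adjusted p under 0.05 and open points did not. Frem1 is farthest left at -4.31 and -3.98, and Lama1 and Lama3 are farthest right.

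Because chains assemble with each other, the balance within chain families was compared as log2 ratios of CPM, in which gene length cancels between groups. A total of 10 ratios in 5 comparisons gave 50 exact permutation tests (two-sided, 70 relabelings each), of which 18 gave the smallest p this design allows, 0.0286. Adjusted over all 50 (Benjamini-Hochberg) the smallest p was 0.0794, so 0 passed at 0.05. At this size the adjustment lets a test pass only if at least 29 of the 50 reach the smallest p, so the count of 0 says little. Adjusted over the 10 ratios of 1 comparison, a choice made after seeing the data, all 18 passed, at 0.0286 or 0.0357. These relabelings do not use the pairing by isolate, and the paired sign-flip test cannot give a p below 0.125 with 4 isolates, so 0 passed there. They comprised 10 ratios in GFP_TGFB against GFP and 8 in Cre_TGFB against Cre, and in each the 4 libraries of one group lay apart from those of the other.

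The Col4a1 to Col4a2 ratio was 0.71, 0.69, 0.65 and 0.69 in GFP_TGFB, against 0.38, 0.38, 0.31 and 0.40 in GFP, and 0.71, 0.68, 0.72 and 0.75 in Cre_TGFB, against 0.36, 0.35, 0.34 and 0.37 in Cre (log2). The values within a group were nearly the same, and the shift was 0.32 in GFP_TGFB and 0.36 in Cre_TGFB. The Col4a5 to Col4a6 ratio was higher by 1.19 in GFP_TGFB than in GFP and by 1.16 in Cre_TGFB than in Cre. As a share of collagen IV chains per kb, Col4a1 made up 56.8 ± 0.4% in GFP_TGFB and 50.3 ± 0.545% in GFP (SD, n = 4).

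Among laminin alpha chains per kb, Lama4 made up 69.2 ± 3.22% in GFP_TGFB and 88.7 ± 1.34% in GFP, and Lama2 made up 28.5 ± 3.3% in GFP_TGFB and 10.5 ± 1.09% in GFP (SD, n = 4). The log2 ratio of Lama4 to Lama2 was 0.64 to 1.19 in GFP_TGFB, against 2.43 to 2.79 in GFP, a difference of -1.79, and it was -1.81 in Cre_TGFB against Cre. Lama4 thus had the larger share in every group. Lamb2 took 24.9 ± 1.09% of the beta chains in GFP_TGFB and 34.5 ± 3.47% in GFP, and Nid2 took 1.93 ± 0.0654% of the nidogens in GFP_TGFB and 9.44 ± 3.2% in GFP. The Nid1 to Nid2 ratio moved most, by 2.34 in GFP_TGFB against GFP and by 2.31 in Cre_TGFB against Cre.

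**Figure D3:**
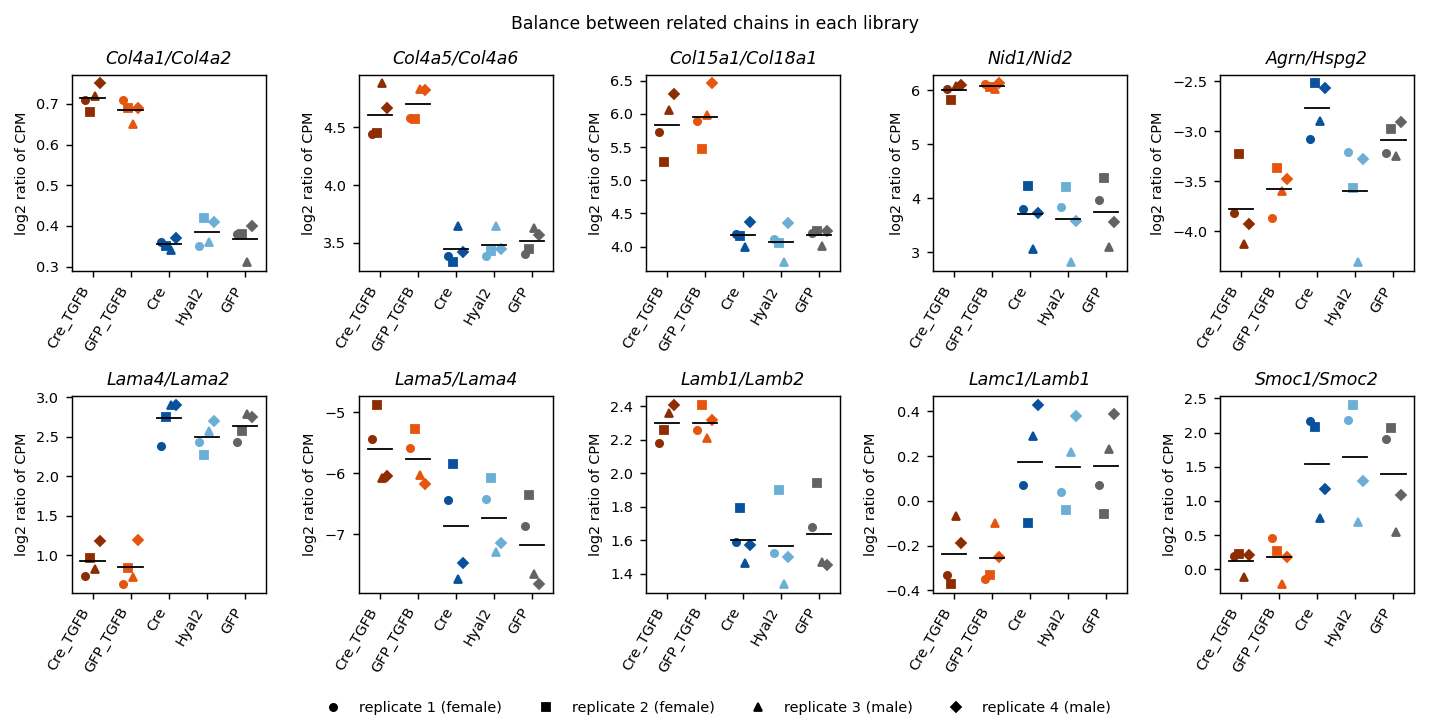
Log2 ratio of CPM between related genes in each library, by group, with the group mean as a line and the isolate as the symbol's shape. In Col4a1/Col4a2, Col4a5/Col4a6, Col15a1/Col18a1, Nid1/Nid2, Lama4/Lama2 and Lamb1/Lamb2 the libraries with TGFB stand apart from all those without it. GFP overlaps with Cre and with Hyal2 in every panel. In Agrn/Hspg2, every Hyal2 library lies below every Cre library.

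The spread over the 4 isolates was narrower with TGFB in most members. Taking the mean of the groups with and without TGFB for each isolate, the range over isolates was narrower with TGFB in 23 of 28 members (82.1%), beside 58.7% of all genes tested, with a median log2 range of 0.41 with TGFB and 0.66 without over the members. The share was 19 of 28 for GFP_TGFB against GFP (61.5% of all genes) and 25 of 28 for Cre_TGFB against Cre (53.8% of all genes), and no test was made of it. With each isolate left out in turn, alternatives added after the data were seen, the count was 20 to 23 for the means of the groups, 16 to 22 for GFP_TGFB against GFP and 21 to 25 for Cre_TGFB against Cre. Without isolate 2, low in the members named at the start, it was 21 members for the group means (53.7% of all genes), 17 for GFP_TGFB against GFP (60% of all genes) and 21 for Cre_TGFB against Cre (49.3% of all genes). For GFP_TGFB against GFP the members' share was near that of all genes, at 67.9% with all isolates, and without isolate 3 it was 57.1%, beside 59.7% of all genes. Nid2 had a 1.1-fold range over isolates with TGFB and a 3.2-fold range without. Smoc2 had a 1.71-fold range with TGFB and a 4.44-fold range without. Nid1 and Hspg2 also drew together, to 1.06-fold and 1.13-fold with TGFB against 1.38-fold and 1.55-fold without, while Lama1 was the reverse at 3-fold with TGFB and 1.8-fold without.

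Both male isolates lay above both female ones, with and without TGFB, in 9 members (Col15a1, Lama4, Lamb1, Lamb2, Lamc1, Nid1, Hspg2, Smoc1 and Smoc2), and 1 member, Lama5, was higher in the female isolates in both settings. Of all genes 12.3% were male-higher and 13.3% female-higher by this rule. With 2 isolates of each sex, sex and other differences between isolates cannot be told apart. A direct test of the TGFB effect in female against male libraries called 1 of 28 members by edgeR, beside 1.38% of all genes, and 6 members had an unadjusted p under 0.05, beside 16.5% of all genes. This was Ntn4, for which the female minus male difference was -0.49 on the log2 scale (adjusted p = 0.042), with similar levels of 101 to 118 CPM in GFP_TGFB of both sexes and higher levels in female than in male GFP libraries.

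**Figure D4:**
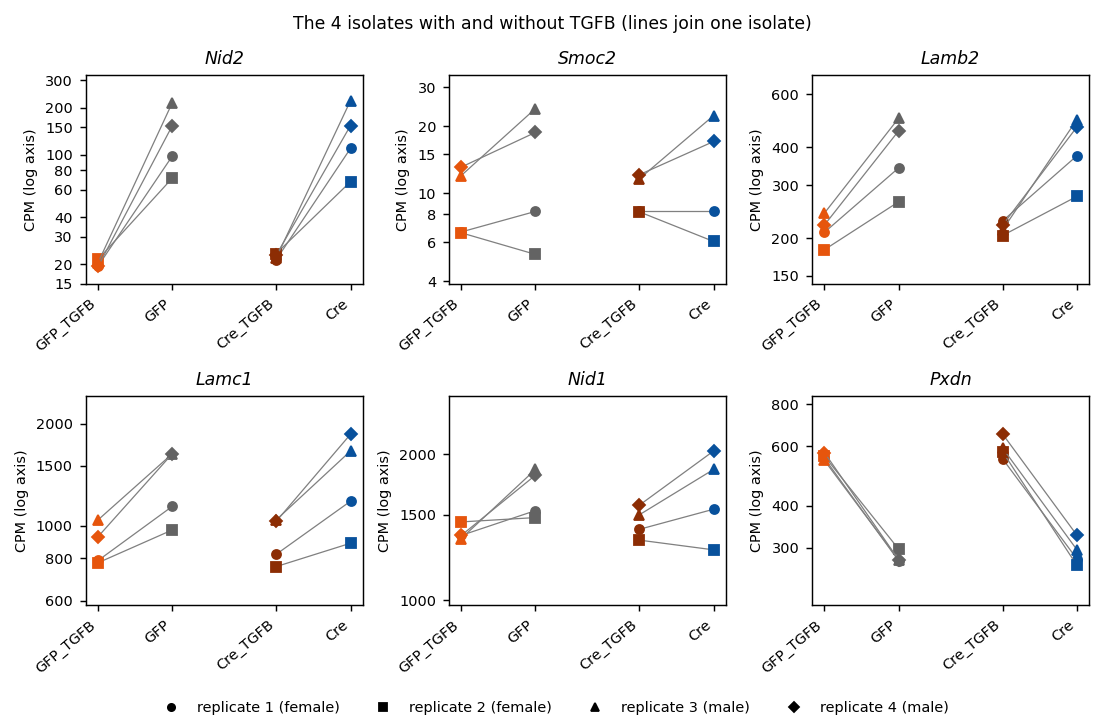
CPM (log axis) of 6 members in GFP_TGFB, GFP, Cre_TGFB and Cre, with a line joining the 2 cultures of an isolate. For Nid2 the range over isolates is 1.11-fold in GFP_TGFB and 3.04-fold in GFP, and 1.09-fold in Cre_TGFB and 3.3-fold in Cre, while for Pxdn it is at most 1.23-fold in these groups.

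The deletion and the overexpression of Hyal2 addressed whether the hyaluronidase alters these genes. In Cre against GFP, Hyal2 against GFP and Cre_TGFB against GFP_TGFB, edgeR called 0 of 28 members, beside 0.0064% of all genes in each. The Cre by TGFB interaction, the difference between the TGFB effects in Cre and GFP cells, also called 0 members, beside 0% of all genes. Without adjustment, edgeR gave p under 0.05 for 1 member in Cre against GFP (4.55% of all genes), for 0 in Hyal2 against GFP (2.12%), for 0 in Cre_TGFB against GFP_TGFB (1.43%) and for 1 in the interaction (2.54%). The isolate block, DESeq2 and limma-voom called 0 members too, where the block called 0.269% of all genes in Cre against GFP. With the block 2, 3, 2 and 0 members had an unadjusted p under 0.05, in the same order, beside 8.71%, 4.37%, 3.05% and 5.56% of all genes. In 0 members did the libraries of the groups compared stand apart, where 3.68% of all genes did so in Cre against GFP, 1.25% in Hyal2 against GFP and 1.57% in Cre_TGFB against GFP_TGFB.

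The limits on an effect differed by gene. The 95% interval lay within a log2 fold change of ±0.5 for 16 members in Cre against GFP, 17 in Hyal2 against GFP and 17 in Cre_TGFB against GFP_TGFB, and within ±1 for 24, 25 and 26. Pxdn, Col4a1, Col4a2 and Nid1 were among the narrow ones. They were widest in low or variable members such as Lama1, Lama3, Lamb3 and Smoc2, and over all members they reached from -1.34 to 1.71 in Cre against GFP, from -1.48 to 1.12 in Hyal2 against GFP and from -0.92 to 1.19 in Cre_TGFB against GFP_TGFB.

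Among the members Agrn had the smallest unadjusted p in these comparisons without the block, and Lama5 the smallest with it. Agrn had 227, 236, 286 and 365 CPM in Cre, against 183, 185, 222 and 232 CPM in GFP, a log2 fold change of 0.44 (SE 0.18, 95% interval 0.08 to 0.80, adjusted p = 0.926 by edgeR). All isolates were higher in Cre, and the groups overlapped. In Hyal2 libraries it had 205, 135, 131 and 220 CPM, with a log2 fold change of -0.25 against GFP (adjusted p = 1 by edgeR), and its interaction term was -0.55 (SE 0.26, adjusted p = 1). Lama5 was 0.34 higher in Cre and 0.38 higher in Hyal2 than in GFP on the log2 scale, neither called (adjusted p = 0.926 and 1, and 0.239 and 0.892 with the block). It was higher in 3 of 4 isolates in Cre and in 4 of 4 in Hyal2. Npnt in Cre_TGFB against GFP_TGFB was lower in 4 of 4 isolates and not called either (-0.31, adjusted p = 1, and 0.907 with the block).

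**Figure D5:**
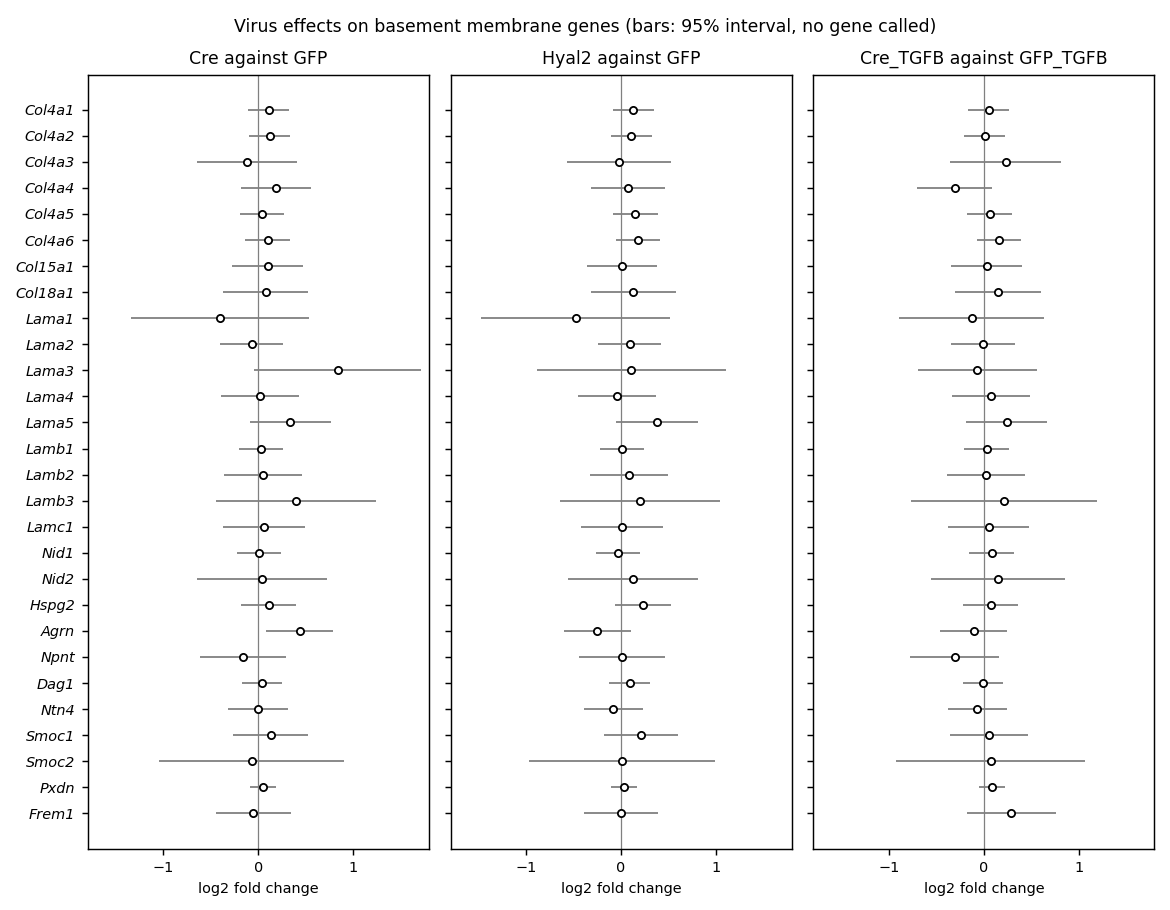
Log2 fold change of the 28 tested members in Cre against GFP, Hyal2 against GFP and Cre_TGFB against GFP_TGFB, with bars of the 95% interval. No member was called, and most points lie within 0.5 of 0, with Lama3 in Cre against GFP the widest departure at 0.84.

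Other genes of the same biology were counted from 4 lists. Of 16 tested further basement membrane components, 4 were higher and 9 lower in GFP_TGFB against GFP, and their median change was -0.75 (log2), beside 26.6% of all genes higher, 28.6% lower and a median of -0.02. The same shares of all genes stand behind the other 3 lists. The collagen and elastin cross-linking enzyme Loxl2 rose to 2360 ± 137 CPM in GFP_TGFB, against 942 ± 44.8 CPM in GFP (1.32), and Hmcn2, a hemicentin, rose by 1.25 (log2). The fibulin Fbln1 fell to 33 ± 5 CPM in GFP_TGFB, against 202 ± 33 CPM in GFP (log2 fold change -2.61), and the netrin Ntn3 had a log2 fold change of -2.15. Of 19 tested receptors, 5 were higher, about the share of all genes, and 8 lower, with a median of -0.28. Among them Itga9 (1.03) and Unc5b (0.69), an integrin chain and a netrin receptor, rose, and Bcam (-1.46), a receptor of laminin alpha-5, and the syndecan Sdc4 (-1.61) fell.

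Dystroglycan, whose gene was not called above, needs sugar chains to bind laminin. Of 15 tested enzymes that build these, 4 were higher, about the share of all genes (26.6%), and 0 lower, with a median log2 fold change of 0.12. Pomgnt1 rose to 106 ± 6.93 CPM in GFP_TGFB, against 65.2 ± 7.13 CPM in GFP (0.70), and Gmppb rose by 0.66. In the dystrophin complex, which ties dystroglycan to the cytoskeleton, 2 of 11 tested genes were higher and 7 lower (26.6% and 28.6% of all genes), with a median of -0.41. The sarcoglycans Sgcb and Sgce fell, with log2 fold changes of -1.26 and -0.88, and Dtnb, a dystrobrevin, rose (0.44). In all 4 lists 0 genes were called by edgeR, with or without the block, in the comparisons of viruses and in the interaction.

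Markers of cell types were counted in GFP_TGFB against GFP in the same way. Of all genes 26.6% were called higher and 28.6% lower there, and the counts on these short lists are to be read against those shares. Of 10 endothelial markers 5 were called lower and 0 higher, with a summed level of 17.3 to 22.9 CPM in GFP_TGFB and 39.5 to 43.3 CPM in GFP, and Pecam1 at a mean of 1.8 CPM in GFP_TGFB and 3.55 CPM in GFP. Most of the difference in that sum was Tek, at a mean of 5.01 CPM in GFP_TGFB and 20.8 CPM in GFP. Schwann cell markers summed to 4.42 to 6.9 CPM in GFP_TGFB and 14.2 to 20.7 CPM in GFP (3 of 7 tested lower, Foxd3 at 0 in GFP_TGFB), and leukocyte markers to 110 to 270 CPM in GFP_TGFB and 185 to 430 CPM in GFP (5 of 10 lower). Most of the leukocyte sum was Lyz2, at a mean of 149 CPM in GFP_TGFB and 224 CPM in GFP, which was not called (adjusted p = 0.161 by edgeR). Mesothelial markers summed to 184 to 274 CPM in GFP_TGFB and 588 to 662 CPM in GFP (3 of 6 lower), nearly all of it Aldh1a2. Mural markers summed to 637 to 719 CPM in GFP_TGFB and 573 to 739 CPM in GFP, with 4 of 10 higher and 2 lower. Most of that sum was Pdgfrb, which was not called (451 CPM in GFP_TGFB and 481 CPM in GFP). Cspg4 (64.6 against 2.55 CPM) and Cnn1 (65.3 against 3.62 CPM) were among those higher in GFP_TGFB than in GFP, and Notch3 (38.7 against 127 CPM) among those lower. Cardiomyocyte markers summed to at most 3.48 CPM in both groups, with Myh6, Nppa and Pln at 0. Fibroblast markers summed to 37300 to 46400 CPM in GFP_TGFB and 43300 to 65500 CPM in GFP, with 1 of 10 higher and 8 lower. The part of these cells in the changes of Lama4, Nid2, Npnt and the other members was not tested.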

How the data were processed

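The authors deposited a table of raw read counts for 20 cultures, with a row per Ensembl gene and no normalisation. Per the labels' protocols, Trizol RNA was DNase-treated before NEBNext Ultra II library preparation. The submitters' processing notes name build GRCm39, HTSeq 0.10.0 and FastQC 0.10.1. For the aligner, annotation release and strand setting no source was at hand (not given in the sources used here), so reads of overlapping genes on opposite strands, such as the 22 shared bases of Col4a1 and Col4a2, cannot be told apart. All 20 columns matched a labelled sample. Symbols and exon lengths came from an annotation of GRCm38 (52081 of 55414 identifiers had a symbol).

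The test was that of edgeR 4.0.16 under R 4.3.3 (robust quasi-likelihood F test, TMM factors, filterByExpr with a minimum count of 10). All 20 libraries entered a single model with group means and no block, and p-values were adjusted over 15624 genes (Benjamini-Hochberg, threshold 0.05). The script was tested on simulated data with known changes. SE was taken as the log2 change, without its sign, over the square root of F. Ratios used log2 CPM with a prior count of 2.

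Same-numbered libraries share a code in the library names, and their deviations from the group means correlated in all 40 pairs (0.11 to 0.71, median 0.41), against a median of -0.25 in 120 differently numbered pairs. Deviations cancel within a group, which pushes differently numbered pairs to negative values, and same-sex pairs of unlike number reached 0.44. The correlations alone thus do not separate isolate from sex. The numbers were read as pairing the libraries by the shared code, and the fit with the number as a block is given where it changes a call. P-values without the block rest on the spread between libraries within a group, pooled over the 5 groups. They treat the libraries as independent and ignore the pairing, although the same 4 isolates recur in every group. No 2 replicates held the same counts (chi-square per degree of freedom at least 8.81 in 30 pairs).

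Alternatives were RLE factors, library totals, no filter, DESeq2 1.42.0, limma-voom (limma 3.58.1), the groups compared alone, 1 sex alone, and each library or isolate left out. The members and lists were chosen with earlier results of these data known. Values of every library are given for members called in GFP_TGFB against GFP whose higher group averaged 5 CPM or more (at most 6 each way) and for 6 core components. Those of Pxdn, Ntn4, Frem1, Nid2 and Agrn in further groups, and of Lama1 and Lama3, were added after their values were seen. From each list of other genes the 2 with the smallest p in each direction are named, except where a result is not reported here.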

Additional observations from a re-analysis of the deposited data

Results flagged for a closer look

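In 9 of 140 sets of 4 libraries (28 members in 5 groups), 1 library lay far from the other 3 (a gap of more than 0.829 of the range). Chance gives about 1 in 20 sets. Of these, 5 were low values of Cre replicate 2: Col4a1 at 3400 CPM (others 4360 to 4490), Col4a2 at 2670 CPM (3390 to 3470), Col4a5 at 269 CPM (398 to 419), Lama2 at 105 CPM (169 to 184) and Smoc1 at 25.6 CPM (37.6 to 38.9). For these 5 genes isolate 2 was also the lowest on average over the groups without TGFB and over those with it. The same isolate was low in Cre_TGFB for Col4a5, at 283 CPM (329 to 332), and high in GFP for Pxdn, at 297 CPM (274 to 276). Lama3 stood at 0.045 CPM in GFP replicate 3 (0.133 to 0.147), and Frem1 at 2.33 CPM in Cre_TGFB replicate 4 (3.17 to 3.38). The TGFB effect on Ntn4 differed between the isolates labelled female and those labelled male, by -0.49 (log2, female minus male, edgeR adjusted p = 0.042), in a test added after the data were seen. With 2 isolates of each, sex and other differences between isolates cannot be told apart.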

How the results depend on the processing

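The count of members called in GFP_TGFB against GFP was 14 to 24 over the alternatives (19 in the report) and in Cre_TGFB against Cre 14 to 23 (17 in the report). Library totals gave 21 and 18, no filter 16 and 16, DESeq2 18 and 18, limma-voom 18 and 18, female libraries alone 15 and 16, and male libraries alone 23 and 22. Leaving out 1 library gave 15 to 19 and 16 to 19, and leaving out 1 isolate 14 to 20 and 14 to 18. The replicate block gave 24 and 23 by adding Col4a5, Col15a1, Lama2 and Lamb1 in both comparisons, Nid1 in the first, and Col4a2 and Hspg2 in the second, and it changed no call in the virus comparisons or the interaction. Library totals shifted the median of all genes in GFP_TGFB against GFP to -0.13, from -0.02 with TMM, and split the calls into 6 higher and 15 lower. Hspg2 then lost its call (0.27, adjusted p = 0.0906). Frem1, Nid2, Smoc1, Col18a1, Lama4, Col4a6, Npnt, Lamb2, Lama1, Lama3, Ntn4, Pxdn and Col4a1 were called in all 21 alternatives of both comparisons. Col4a4 was called in 8 of 21, Hspg2 in 11, Lamc1 in 13, Lamb3 in 14, Col4a3 in 15 and Col4a2 in 18 of the first. Direction turned in uncalled members: Lama5 to 0.03 without GFP replicate 2 (-0.23 to 0.03 over single libraries left out), Dag1 to 0.03 without isolate 4 (-0.11 to 0.03 over libraries or isolates left out) and to 0.13 in female libraries, all in GFP_TGFB against GFP, and Dag1 to 0.09 and Smoc2 to 0.19 in female libraries in Cre_TGFB against Cre. The cause was not tested. The count of chain ratios that passed was 0 over all 50 tests, 0 in the paired sign-flip test, which cannot pass, and 18 when adjusted within 1 comparison. In the virus comparisons 0 members were called in every alternative. Depth limits Lamc3, Fras1, Lama3, Lamb3 and Col4a3, whose levels stay near or below 1 CPM.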

Other observations

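Both nephronectin and its receptor chain fell in GFP_TGFB against GFP. Itga8, the integrin alpha-8 chain, had 0.91 ± 0.212 CPM in GFP_TGFB and 5.81 ± 3.15 CPM in GFP (SD, n = 4, log2 fold change -2.65, SE 0.42, edgeR adjusted p = 2.91e-05). Itgb1, the beta chain shared by most laminin- and collagen-binding integrins, rose to 2330 ± 135 CPM in GFP_TGFB, against 1580 ± 129 CPM in GFP (log2 fold change 0.56, SE 0.09, edgeR adjusted p = 3.74e-05). Sspn (sarcospan), a membrane partner of the sarcoglycans, fell to 23.8 ± 2.22 CPM in GFP_TGFB, against 51.4 ± 12.1 CPM in GFP (log2 fold change -1.11, SE 0.18, edgeR adjusted p = 3.4e-05). These 3 genes were chosen after their values were seen.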
